A study of Homo sapiens with 17 samples.

Results

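Depleting the transcription factor ETV4 in PC3 cells with 1 short hairpin RNA (shRNA), sequence A, was followed by lower levels of 495 listed genes. They are all the genes of the authors' deposited table for this shRNA, which lists only decreases. They were taken without further selection, out of 1400 genes in the union of the 4 tables of the series. PC3 is an established human prostate cancer cell line. Per the labels' protocols, early passage PC3 cells received a retrovirus carrying ETV4 shRNA sequence A and were harvested at day 7, giving 3 libraries, and the comparison group received a control retrovirus, giving 2 libraries. Both groups were therefore infected, and the same 2 control libraries also served ETV4 shRNA B. What the control virus carried is described in 2 ways, as a control shRNA in the labels and as an empty vector in the text on the design of the series. The series holds 17 libraries: 3 each for ETV4 shRNA A, ETV4 shRNA B, MED25 shRNA A, MED25 shRNA B and a lentiviral control, and 2 for the retroviral control. The genotype label does not separate the ETV4 shRNAs, so the letter was read from the titles, and whether the replicates were separate cultures is not stated.

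The table gives, per gene, the log2 ratio of knockdown over control (log2 ratio below) and a score, called an adjusted p in the header, whose scale is not stated and which is larger for better supported genes on the reading used here. It gives no value per library, so no spread between replicates, no depth and no test can be given beside any gene. The direction of the ratio was read from the library numbers of the header and the sign of ETV4. The table lists only genes that were lower on this reading, so the shared direction of its 495 genes is no result. It holds no decrease smaller than 1.5-fold and no score below 20.1. The ranges and medians below therefore describe only genes past these edges. Increases were not analysed here, and absence from the table does not show that a gene kept its level. For the same reason the identity of the cells could not be checked: none of the epithelial markers KRT8, KRT18, KRT19, CDH1, EPCAM and CLDN7 was listed, which does not say whether they were expressed, while 8 of a list of 32 epithelial genes that includes these 6 were listed as lower. Of 16 markers of fibroblasts, endothelium and blood, the authors' deposited table listed COL3A1 alone, at −0.73. In bulk RNA, fewer cells of a kind and less RNA per cell cannot be told apart.

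ETV4 belongs to the PEA3 subfamily of ETS transcription factors, which bind DNA sites with a GGAA core, often next to the AP-1 factors of the JUN and FOS families. ERK signalling raises the activity of PEA3 factors, and the factors in turn act on matrix protease and ERK feedback genes. MED25 is the subunit of the Mediator complex to which PEA3 factors can bind through their activation domain, and Mediator links such factors to RNA polymerase II.

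ETV4 itself (ENSG00000175832, chromosome 17) had the best score of the table, 2335, and was at −1.94 in the authors' deposited table, or 26.1% of control. It ranked number 10 by decrease, so 9 other genes were reduced further than the target. Its sign helped to set the direction of the ratios, and its decrease is therefore no independent check of them. ETV4 shRNA B, measured against the same control libraries, left ETV4 at −2.67 in its own deposited table. Of 27 ETS factors in a fixed list, ETV4 was the only member listed with shRNA A.

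Most of the decreases were moderate. Over the 495 genes of the authors' deposited table the log2 ratio ran from −2.32 to −0.59, with quartiles at −0.97, −0.79 and −0.67, so the median gene was at 57.9% of control. A decrease of at least 2-fold was reached by 115 genes, 23.2% of those listed, and of at least 4-fold by 9. The smallest decrease was 1.5-fold, and 75 genes lay within 0.05 of it on the log2 scale, among them the inorganic pyrophosphatase PPA2 and the antiviral gene SAMD9, both at −0.59 in the authors' deposited table. Scores ran from 20.1 to 2335 with a median of 63.6, and 89 genes scored below 30. The melanosomal enzyme TYRP1, at 20.1, and the stromelysin MMP3, at 20.2, sat at the lower edge of the deposited scores. Decrease and score were related only loosely across genes (Spearman rho = 0.432 over 495 genes, which are not independent). Genes with a decrease of at least 2-fold had scores of 36.0 or more in the authors' deposited table, while the highest score among smaller decreases was 701.

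**Figure D1:**
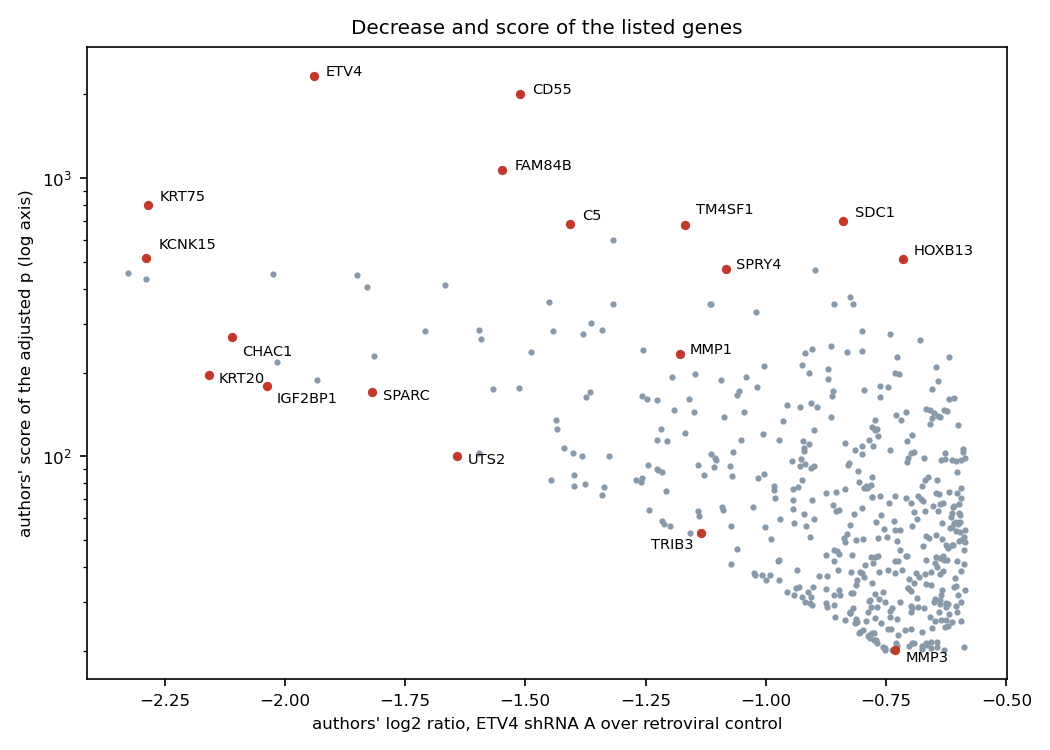
Each point is 1 of the 495 genes of the authors' deposited table, with the log2 ratio of knockdown over control on the x axis and the deposited score on a log y axis. ETV4 lies at the top with a score of 2335 at −1.94, and most genes lie between −1 and the smallest decrease of −0.59.

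The reference annotation matched 483 of the 495 genes, and 432 of these (89.4%) were protein coding. That is 2.17% of the 19951 protein-coding genes annotated. It is not the level to set the lists below against, which is given with them. A further 23 listed genes were lincRNAs and 16 were antisense transcripts. By chromosome, the listed share of coding genes ran from 0 of 45 on chromosome Y and 0.747% on chromosome 19 (11 of 1472) to 4.12% on chromosome 4 (31 of 752). Chromosome 18 was near the upper end, at 4.09% (11 of 269). These shares count all annotated coding genes, whether or not they were expressed in these cells.

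The 25 largest decreases were a mixed set of surface proteins, keratins, secreted proteins and regulators. At the head of the authors' deposited table was the noncoding transcript RP11-59D5__B.2 at −2.32. It is antisense to EYS on chromosome 6, a gene known for its role in photoreceptors, which was itself listed at −1.06 in the authors' deposited table. The potassium channel subunit KCNK15 (−2.29), the Fc gamma receptor FCGR2A (−2.29) and the type II keratin KRT75 (−2.29) followed in the authors' deposited table, and KCNK15 was thus at 20.5% of control. FCGR2A has near-identical copies, and its relative FCGR2C was listed at −0.76 with a score of 20.6 in the authors' deposited table, so the split of reads between them is uncertain. The intestinal and urothelial keratin KRT20 was at −2.16, and CHAC1, a glutathione-degrading enzyme induced by ATF4, at −2.11 in the authors' deposited table.

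The other 3 genes reduced at least 4-fold were the oncofetal RNA-binding protein IGF2BP1 (−2.04), the phospholipase PLD1 (−2.03) and the prokineticin receptor PROKR1 (−2.02) in the authors' deposited table. Below ETV4 came the regulator of G protein signalling RGS4 (−1.83), the matrix glycoprotein SPARC (−1.82) and the peptidylarginine deiminase PADI2 (−1.81) in the authors' deposited table. SPARC had no entry in the other 3 tables. The adenovirus and coxsackievirus receptor CXADR was at −1.71, TMEM27 at −1.67 and the vasoactive peptide urotensin 2 (UTS2) at −1.64 in the authors' deposited table. The remaining coding genes of this set were PADI1 (−1.60), SHISA3 (−1.60), the cytokine signalling inhibitor SOCS2 (−1.59), the sterol exporter ABCG1 (−1.57), FAM84B (−1.55), ABCA13 (−1.51) and the complement decay-accelerating factor CD55 (−1.51) in the authors' deposited table. Of the 25, 12 were also listed with MED25 shRNA A and 8 with MED25 shRNA B, while 9 were in neither MED25 table. Over all 495 genes, 22.6% were also listed with MED25 shRNA A, 9.49% with MED25 shRNA B and 72.9% in neither.

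**Figure D2:**
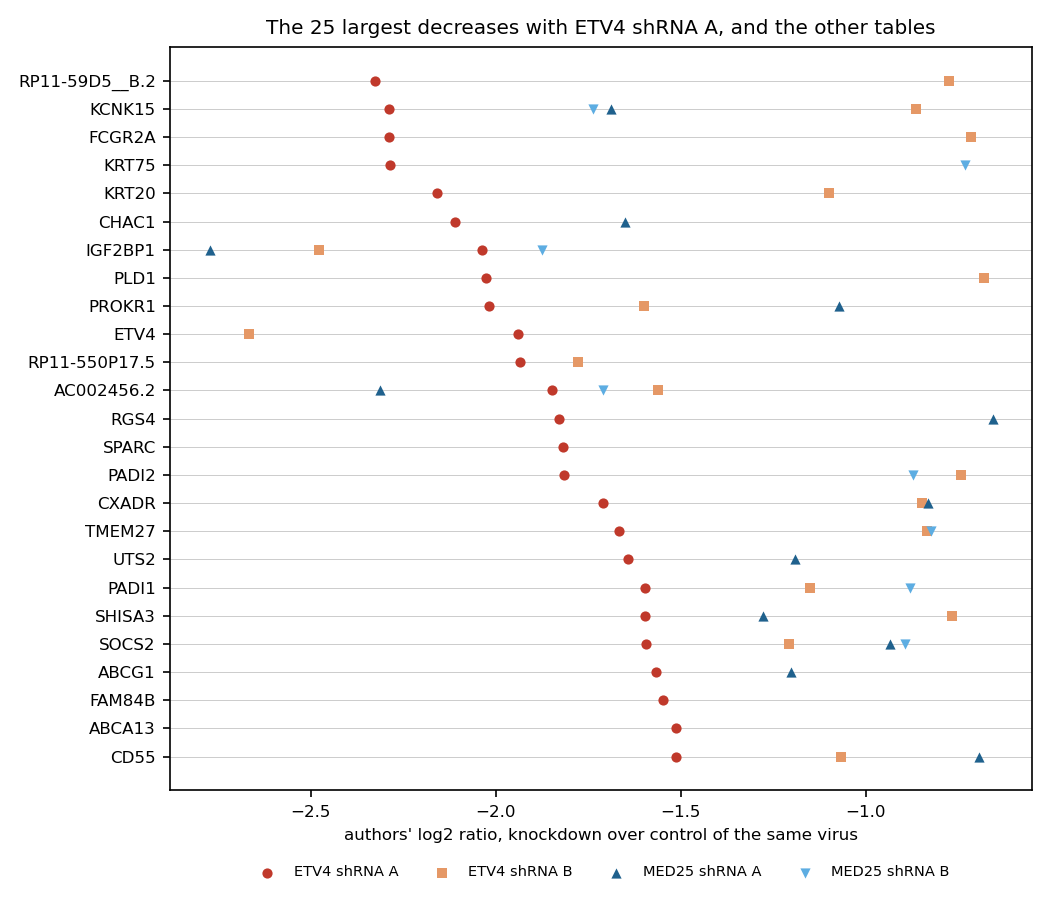
The 25 largest decreases with ETV4 shRNA A, 1 gene per row, with log2 ratios of knockdown over control on the x axis; the marker shape gives the table of each value, and a missing marker means that the gene was not listed there. IGF2BP1, KCNK15, AC002456.2 and SOCS2 carry a value from every table, and SPARC, FAM84B and ABCA13 from ETV4 shRNA A alone.

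Ranking by score gave a different order. After ETV4, the highest scores in the authors' deposited table were those of CD55 (2011), FAM84B (1066), KRT75 (798), the heparan sulfate proteoglycan SDC1 (701), complement component C5 (683) and the tetraspanin-like surface protein TM4SF1 (679). Next in the authors' deposited table were UBE2QL1 (601), KCNK15 (517) and the prostate homeobox factor HOXB13 (513). Several of these were only moderately reduced, SDC1 to −0.84 and HOXB13 to −0.71 in the authors' deposited table. C5 was at −1.41, UBE2QL1 at −1.32 and TM4SF1 at −1.17 in the authors' deposited table. Of these 10 genes, 5 were in neither MED25 table, against 72.9% of all listed genes.

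Genes of known pathways were counted in fixed lists, which together hold 897 distinct genes, of which 102 (11.4%) were listed. The lists were assembled with earlier results of these data known, so this percentage, rather than the 2.17% of all coding genes, is the level to set a single list against. It includes the lists set against it and does not correct for how they were chosen. A larger share in a single list is therefore a description and shows no enrichment. Shares of single lists ran from 0 to 45.0%. Of the same 897 genes, MED25 shRNA A listed 14.8% and MED25 shRNA B 7.8%, the levels to set the MED25 counts below against.

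Transcripts of the amino acid stress response made up the lists with the largest shares. ATF4 is a transcription factor whose translation increases when amino acids run short, and it pairs with C/EBP proteins to induce synthesis enzymes, transporters and its own feedback regulators. Of 20 ATF4 regulators and sensors, 9 were listed (45.0%), with a median log2 ratio of −0.98 against −0.79 over all listed genes, and 4 were at least 2-fold lower. Of 20 amino acid synthesis enzymes, 7 were listed (35.0%), with a median of −0.80, and 1 was at least 2-fold lower. Amino acid transporters had 2 of 20 members listed, and cytosolic aminoacyl-tRNA synthetases 1 of 20.

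Among the regulators, CHAC1 stood well apart at −2.11 in the authors' deposited table. The leucine sensor SESN2 was at −1.14, the pseudokinase TRIB3, a feedback inhibitor of ATF4, at −1.13, and the AP-1 family repressor JDP2 at −1.07 in the authors' deposited table. CEBPB (−0.98) and CEBPG (−0.75), C/EBP partners of ATF4, were listed with ATF4 itself (−0.79) in the authors' deposited table. The mTORC1 inhibitor DDIT4 was at −0.86 and the stress-induced chromatin protein NUPR1 at −0.70 in the authors' deposited table.

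The enzymes covered asparagine and serine synthesis and the one-carbon steps that follow. Asparagine synthetase ASNS was lowest, at −1.22 in the authors' deposited table. The serine pathway was listed from its first step to its last, with PHGDH at −0.85, PSAT1 at −0.92 and PSPH at −0.80 in the authors' deposited table. CBS, which commits homocysteine to cysteine synthesis, was at −0.76, and the mitochondrial folate enzymes MTHFD2 and SHMT2 at −0.75 and −0.61 in the authors' deposited table. The cystine importer SLC7A11 was at −1.23, the arginine and lysine importer SLC7A1 at −0.60 and the cysteinyl-tRNA synthetase CARS at −0.72 in the authors' deposited table.

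These genes were also listed with MED25 shRNA A, whose libraries share no control with ETV4 shRNA A. Of the 19 listed genes of the 4 amino acid stress lists, 18 were in the MED25 shRNA A table, all but DDIT4, and 0 in the MED25 shRNA B table. Over all 495 genes those shares were 22.6% and 9.49%, so a count of 0 among 19 is near the general share with MED25 shRNA B. Over those 18 the median log2 ratio of the authors' deposited tables was −0.83 with ETV4 shRNA A and −1.40 with MED25 shRNA A, and 17 of the 18 had the lower ratio with MED25 shRNA A. CHAC1 was the exception, at −2.11 against −1.65 in the authors' deposited tables. ATF4 was at −0.79 against −1.38, ASNS at −1.22 against −1.41 and SLC7A1 at −0.60 against −1.83 in the authors' deposited tables. Among the other 94 genes shared by both tables, 59 had the lower ratio with MED25 shRNA A, with medians of −0.81 and −0.93. MED25 shRNA A also listed 13 of the 20 tRNA synthetases and 8 of the 20 transporters. The ETV4 shRNA B table, which holds only 98 genes and shares its control libraries with ETV4 shRNA A, listed SLC7A11 at −0.62 and no other of the 19, and nothing about these genes is read from that count. Whether these values differ between shRNAs was not tested, since no library-level values were used.

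**Figure D3:**
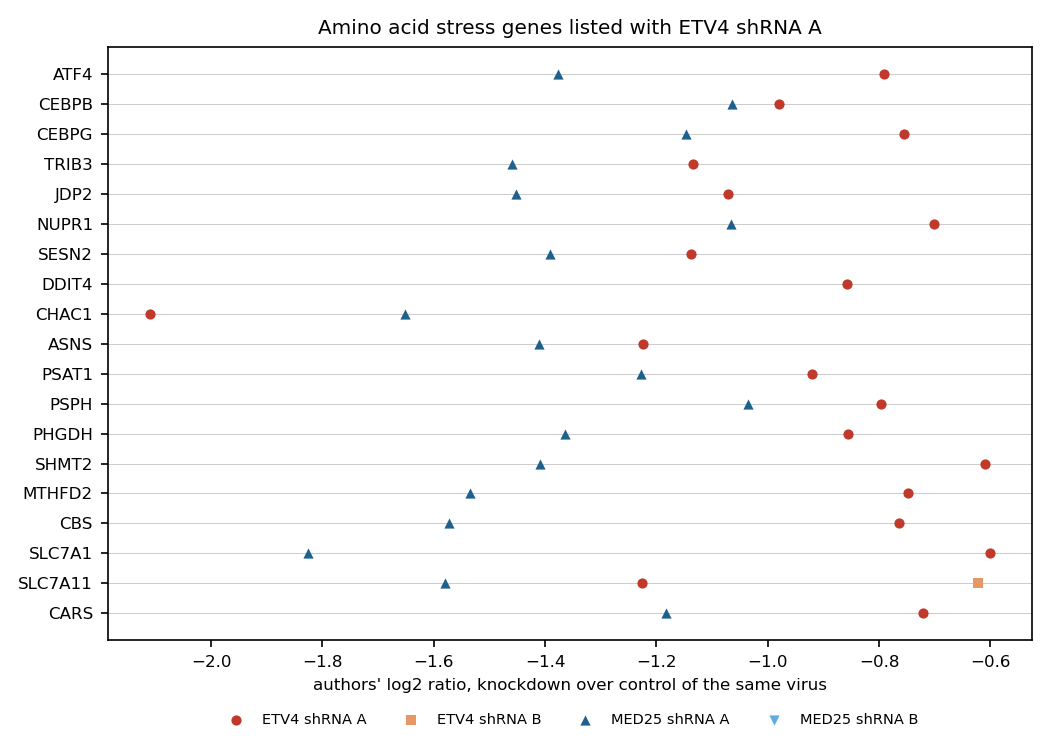
The 19 amino acid stress genes listed with ETV4 shRNA A, 1 gene per row, with log2 ratios of knockdown over control on the x axis and 1 marker per table that lists the gene. Values of MED25 shRNA A lie further from 0 in every gene it lists except CHAC1, at −1.65 against −2.11, and no gene carries a MED25 shRNA B value.

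Promoter sequences show which of these genes hold, close to a start, letters that match a C/EBP-ATF response element, the site of ATF4 and C/EBP pairs. A match shows the letters alone, and binding was not examined. RefSeq promoter windows of GRCh38.p14, 250 bases before to 50 after a start, were searched on both strands for TGATGNAA; the files themselves rest on hg19. Of the 19 amino acid stress genes, 15 had a window and 6 of these held a match. The sequences of those 6 are given 5′ to 3′ along the gene with the matches in capitals, as 58 bases around the match or, for ASNS and CARS, as the whole window, where a match to the ETS motif described next is capitalised too.

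CHAC1 (chr15:40953237-40953294, plus strand): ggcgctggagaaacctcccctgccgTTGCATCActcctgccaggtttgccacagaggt
ASNS (chr7:97872359-97872658, minus strand): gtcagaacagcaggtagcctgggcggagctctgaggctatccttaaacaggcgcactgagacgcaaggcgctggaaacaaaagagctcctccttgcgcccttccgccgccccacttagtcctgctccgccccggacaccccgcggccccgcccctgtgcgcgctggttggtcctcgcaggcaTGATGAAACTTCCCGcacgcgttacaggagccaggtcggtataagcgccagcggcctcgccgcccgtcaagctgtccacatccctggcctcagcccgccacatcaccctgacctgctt
JDP2 (chr14:75427981-75428038, plus strand): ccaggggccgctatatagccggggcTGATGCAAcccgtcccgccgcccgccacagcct
CEBPG (chr19:33374046-33374103, plus strand): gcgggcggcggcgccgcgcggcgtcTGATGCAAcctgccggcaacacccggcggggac
CARS (chr11:3057374-3057673, minus strand): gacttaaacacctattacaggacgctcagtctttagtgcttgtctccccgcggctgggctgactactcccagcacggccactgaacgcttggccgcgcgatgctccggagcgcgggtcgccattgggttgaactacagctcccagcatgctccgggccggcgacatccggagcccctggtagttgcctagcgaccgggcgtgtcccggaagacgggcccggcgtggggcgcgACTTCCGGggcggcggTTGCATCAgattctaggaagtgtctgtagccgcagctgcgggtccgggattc
SLC7A1 (chr13:29595649-29595706, minus strand): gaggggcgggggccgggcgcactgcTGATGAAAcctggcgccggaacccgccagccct

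The distances ran from −209 bases in CHAC1 to 7 bases past the start in SLC7A1. In CHAC1 and CARS the match reads on the other strand, as TTGCATCA. In ASNS the 2 capitalised matches overlap and read as 1 run, while in CARS they are separate. Over all 336 listed genes with a window, 26 (7.74%) held TGATGNAA, against 571 (3.60%) of 15843 coding genes. Outside the amino acid stress lists the count was 20 of 321 genes (6.23%). Among the genes at least 2-fold lower it was 9 of 77 (11.7%). Listed genes had slightly more windows per gene, 1.52 against 1.40, and counted per window the shares were 5.08% and 2.69%.

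The ETS motif was found in a smaller share of listed genes than of all coding genes. The high-affinity form CCGGAAGT was found in 9 of 336 listed genes (2.68%) and in 6.97% of all coding genes. No gene at least 2-fold lower held it, of 77 with a window. Per window the shares were 1.76% and 5.34%. With any base at the second place, CNGGAAGT, which includes the first form, was found in 41 genes (12.2%) against 13.7%. Its share was 5.19% (4 of 77) among genes at least 2-fold lower and 7.87% (17 of 216) among those with a score of at least 50. Listed windows had a median GC content of 60.0% against 62.3%, and the part of base composition in these shares was not tested. The AP-1 motif TGANTCA was found in 34 genes (10.1%) against 8.04% of all coding genes, but in 7.87% (17 of 216) of those with a score of at least 50, which is below the share of all. The shares of all coding genes, for each motif, count genes whether or not they were expressed in these cells. A missing match says only that these letters are not in the window, and sites further away were not searched. The largest decreases among genes with the high-affinity form were those of the protein kinase A inhibitor PKIB (−0.91) and the phosphatase PHOSPHO2 (−0.77) in the authors' deposited table, whose sites are shown in capitals.

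PKIB (chr6:122471801-122471858, plus strand): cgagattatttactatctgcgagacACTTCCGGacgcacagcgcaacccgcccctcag
PHOSPHO2 (chr2:169694401-169694458, plus strand): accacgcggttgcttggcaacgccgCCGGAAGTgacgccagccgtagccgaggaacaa

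**Figure D4:**
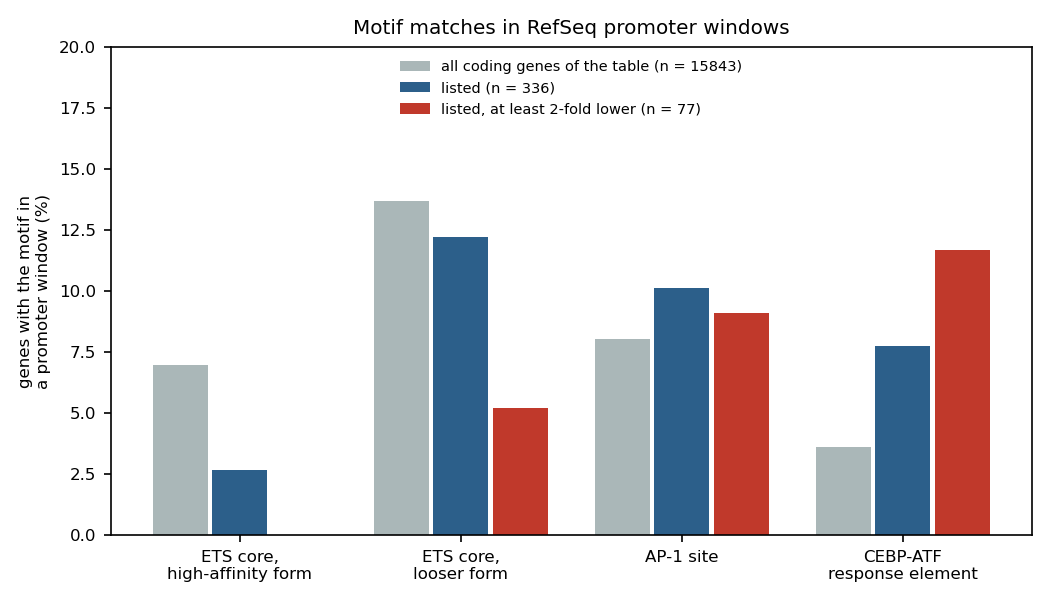
Share of genes, in percent, with each motif in a RefSeq promoter window, for all 15843 coding genes, the 336 listed genes with a window and the 77 of them at least 2-fold lower. The C/EBP-ATF element is at 3.60%, 7.74% and 11.7%, and the high-affinity ETS form at 6.97%, 2.68% and 0.

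Genes that PEA3 factors and ERK signalling are known to act on were listed at shares near the 11.4% over all fixed lists. Of 30 genes described in the literature as PEA3 targets, 3 were listed, and of 27 ERK output genes, 4, with ETV4 itself among them. The ERK feedback inhibitors SPRY4 (−1.08) and SPRY1 (−0.67) and the EGF receptor ligand epiregulin (EREG, −0.70) were the other ERK output genes in the authors' deposited table. SPRY4 had a high score, 473. The interstitial collagenase MMP1 was at −1.18 with a score of 233 and MMP3 at −0.73 with 20.2 in the authors' deposited table. Their genes lie 37.6 kb apart on chromosome 11. MMP3 was also listed with MED25 shRNA A, at −1.50 in its deposited table, and MMP1 was not. The serine protease PRSS23 was in the authors' deposited tables of ETV4 shRNA A, at −0.65, and MED25 shRNA A, at −0.59.

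Matrix and adhesion genes were listed at shares near that over all fixed lists. Beside SPARC, the authors' deposited table listed the basement membrane collagen COL4A6 at −1.16 and the fibrillar collagen COL3A1 at −0.73. With SPARC, 3 of the 35 matrix proteins of the fixed list were listed. Outside that list, and chosen after their values were seen, COL2A1 (−0.74), HAPLN1 (−1.07), MGP (−0.93) and ABI3BP (−0.93) were in the authors' deposited table. The leukocyte integrin chain ITGB2 (−1.25) and the collagen-binding ITGA10 (−0.78) were the 2 listed of 20 integrins in the authors' deposited table. An antisense transcript overlapping ITGB2, AL844908.5, was at −0.94 in the authors' deposited table. Of 21 mesenchymal genes, 2 were listed, SPARC and the ecto-nucleotidase NT5E, which was at −0.64 in the authors' deposited table.

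Epithelial genes had 8 of 32 members listed, with a median of −0.74 and 3 at least 2-fold lower. KRT20, PADI2 and PADI1 were those 3. PADI enzymes convert arginine to citrulline in keratins and other proteins, and PADI2 and PADI1 are neighbours on chromosome 1, 85.7 kb apart. Regulators of epithelial identity had smaller decreases in the authors' deposited table: OVOL2 at −0.76, GRHL2 at −0.67 and the splicing regulator ESRP1 at −0.63. The tight junction protein claudin 1 (CLDN1) was at −0.72 and the basal keratin KRT15 at −0.64 in the authors' deposited table. MED25 shRNA A listed 0 of these 32 genes and MED25 shRNA B 4. Of 18 genes in the fixed list named prostate luminal and androgen-response genes, HOXB13 (−0.71), STEAP1 (−0.69) and CDK14 (−0.86) were in the authors' deposited table.

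Vascular guidance and growth genes had 6 of 30 members listed, 2 of them at least 2-fold lower, with a median of −0.90. The VEGF receptors FLT1 and KDR were at −1.15 and −0.90 in the authors' deposited table, and FLT1 was at −1.29 with ETV4 shRNA B. The semaphorins SEMA3C (−0.90) and SEMA3F (−0.67) and the endothelial proteoglycan ESM1 (−0.87) were listed beside them in the authors' deposited table, and PROKR1 is counted in this list too. ESM1 had larger decreases in the deposited tables of ETV4 shRNA B (−1.57) and MED25 shRNA B (−1.78).

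Peptide and G protein-coupled receptor genes had 8 of 43 members listed, with a median of −0.89 and 3 at least 2-fold lower. Beside PROKR1 and UTS2, the neuropeptide Y receptor NPY1R was at −1.45 in the authors' deposited table. The thrombin receptor F2R (−0.86) and the related protease-activated receptor F2RL1 (−0.82) had scores of 354 and 373 in the authors' deposited table. F2R lies between IQGAP2 (−0.87) and F2RL1 on chromosome 5, so 3 neighbouring genes had like values in the authors' deposited table. The lysophosphatidic acid receptor LPAR3 was at −0.65, the prostaglandin receptor PTGER4 at −0.62 and the vasodilator peptide ADM2 at −0.91 in the authors' deposited table. Channels had 4 of 30 members listed: beside KCNK15, the sodium channel SCN9A (−0.85), the potassium channel KCNN4 (−0.69) and the chloride channel ANO1 (−0.66) in the authors' deposited table.

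Interferon-induced genes had 9 of 42 members listed (21.4%), 8 of them between −0.71 and −0.59. LGALS3BP, a secreted glycoprotein, was the lowest, at 49.8% of control in the authors' deposited table. The nucleic acid sensors IFI16 (−0.71), IFIH1 (−0.70) and DDX60 (−0.61) and the guanylate-binding proteins GBP2 (−0.67) and GBP3 (−0.61) were listed with smaller decreases in the authors' deposited table. SAMD9L (−0.68), SAMD9 (−0.59) and IFIT3 (−0.59) completed the list in the authors' deposited table. The median over the 9 was −0.67, against −0.79 over all listed genes, and 5 of the 9 had a score of at least 50. With MED25 shRNA A, 0 of the 42 genes were listed, and with MED25 shRNA B 1.

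Immune surface genes had 5 of 29 members listed, and cytokines and their receptors 3 of 35. CD55 (−1.51), TLR6 (−0.82), the NKG2D ligand ULBP1 (−0.78) and the peptidase DPP4 (−0.62) were in the tables of ETV4 shRNA A, with the values given, and of MED25 shRNA A in the authors' deposited tables. Interleukin 15 (IL15, −0.73) and the neutrophil chemokines CXCL2 (−0.66) and CXCL6 (−0.61) were listed in the authors' deposited table. The NF-kB regulator NFKBIZ was at −1.04 and the apoptosis inhibitor BIRC3 at −0.71 in the authors' deposited table.

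Developmental signalling genes were scattered over several pathways. The bHLH factors TFEC (−1.14), HES1 (−0.96), MITF (−0.83) and HEY1 (−0.79) were 4 of 25 listed in the authors' deposited table, and HES1 and HEY1 are also Notch targets. The Notch ligand JAG1 was at −0.70 in the authors' deposited table. The BMP, activin and TGF-beta list had 4 of 30 members listed. They were the BMP antagonist noggin (NOG, −0.79), the activin subunit INHBA (−0.78) and the receptors BMPR1B (−0.78) and TGFBR2 (−0.61) in the authors' deposited table. Outside that list, and chosen after their values were seen, BMP3 (−0.94) and INHBE (−0.84) were lower there than these 4. NOG was further reduced with MED25 shRNA A (−1.57) and MED25 shRNA B (−2.50) in the authors' deposited tables. FZD4, a WNT receptor, was at −1.12 in the authors' deposited table and the only 1 of 31 WNT genes listed.

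Genes that restrain growth were listed at a share near that over all fixed lists. Of 22 CDK inhibitor and p53 pathway genes, 3 were listed: the CDK4 and CDK6 inhibitor CDKN2B at −1.22, the pro-apoptotic PMAIP1 at −1.13 and SESN2, counted above, in the authors' deposited table. All 3 were also listed with MED25 shRNA A. Of 32 cell cycle engine genes 0 were listed, and likewise 0 of 20 chaperones and 0 of 30 Mediator subunits. Histones had 3 of 24 members listed, from −0.67 to −0.60 in the authors' deposited table, against 19 of 24 with MED25 shRNA A. Outside that list, and chosen after their values were seen, HIST1H2AL (−0.91), HIST1H3J (−0.82), HIST1H4K (−0.67), the linker histone H1FX (−0.64), HIST3H2A (−0.63) and HIST1H2BM (−0.62) were also in the authors' deposited table. Many histone genes are near-identical copies, so the split of reads between such copies is uncertain. ABC transporters and lipid-handling genes had 4 of 30 members listed, PLD1 and ABCG1, given above, among them. The drug exporter ABCC3 was at −0.63 and the wax synthase AWAT2 at −0.64 in the authors' deposited table. Outside that fixed list, the authors' deposited table also held ABCA13, given above. ABCA8 (−1.38) and ABCA10 (−0.87), chosen after their values were seen, were there too. Of 22 redox enzymes, the aldehyde oxidase AOX1 alone was listed, at −1.11 in the authors' deposited table.

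**Figure D5:**
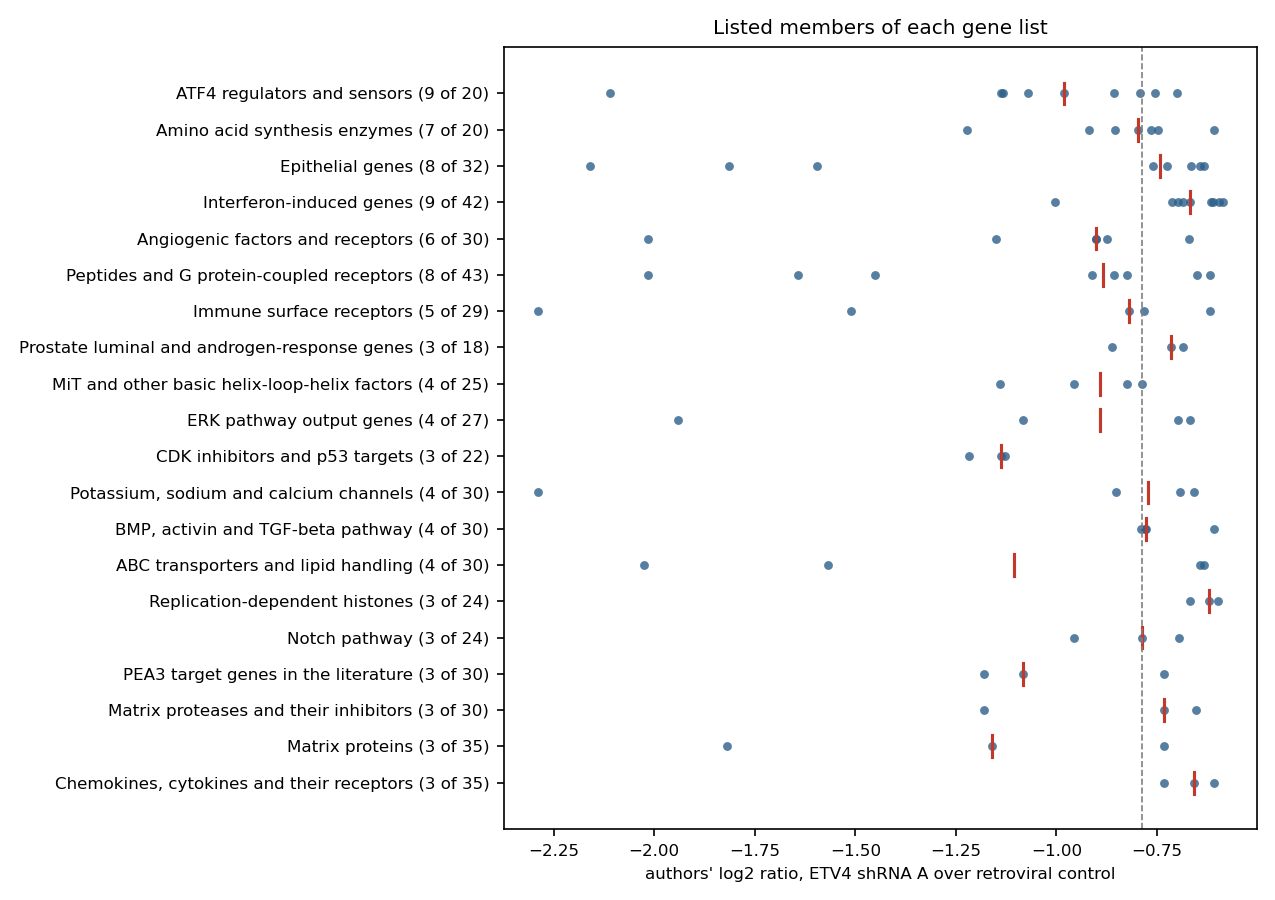
Listed members of each gene list with ETV4 shRNA A, 1 list per row and 1 point per listed gene, with the log2 ratio of knockdown over control on the x axis. Red ticks mark each list's median and the dashed line the median of all 495 genes, −0.79; lists with at least 3 listed members are shown. The list of ATF4 regulators has 9 of 20 members, from −2.11 to −0.70, and the interferon list has 9 of 42, of which 8 lie between −0.71 and −0.59.

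Over the whole table, 112 of the 495 genes were also listed with MED25 shRNA A, 22.6% of the ETV4 shRNA A genes and 14.2% of the 786 MED25 shRNA A genes. With MED25 shRNA B, 47 were shared, 9.49% of the ETV4 shRNA A genes and 12.6% of the 374 MED25 shRNA B genes. The genes in at least 1 MED25 table numbered 134, those in both 25, and those in neither 361. Of the genes at least 2-fold lower, 69 of 115 were in neither. Genes shared with MED25 shRNA B had a median of −0.91 with ETV4 shRNA A, against −0.78 for those not shared, and 21 of the 47 (44.7%) were at least 2-fold lower. For MED25 shRNA A the medians were −0.81 and −0.78, and 32 of the 112 (28.6%) were at least 2-fold lower.

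In all 4 tables stood 10 genes. IGF2BP1 was at −2.04 with ETV4 shRNA A, −2.48 with ETV4 shRNA B, −2.77 with MED25 shRNA A and −1.88 with MED25 shRNA B in the authors' deposited tables. KCNK15 was at −2.29, −0.86, −1.69 and −1.74 in the same order of the authors' deposited tables, and was thus lowest with ETV4 shRNA A. The membrane scaffold gene ANK2 was at −1.34, −1.50, −1.77 and −1.84, and SDC1 at −0.84, −0.84, −1.88 and −1.73, in the authors' deposited tables. HEY1 had values of −0.79, −0.93, −1.36 and −1.27 there. SOCS2 had −1.59, −1.21, −0.94 and −0.89 in these deposited tables, the order again that of the shRNAs above. The others were NOG, RASL11A, CDK14 and AC002456.2, an antisense transcript that overlaps CDK14. In the authors' deposited table for ETV4 shRNA A, AC002456.2 was at −1.85 and CDK14 at −0.86. Both ETV4 tables rest on the same control libraries, so their values are not separate evidence.

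Some listed genes lie side by side. The annotation placed 101 of them within 100 kb of another listed gene, in 63 pairs, and 33 pairs were adjacent coding genes. The number that any other set of genes of this size would give was not computed, so these counts do not show clustering. Overlap in position was found for 12 pairs, 10 of them on opposite strands. It was taken over whole gene spans, and whether exons overlap was not examined. Whether counting used strand is not stated either, so the split of reads within these pairs is uncertain. They included SOCS2 with RP11-887P2.1 (−1.21), VEPH1 (−1.19) with the pentraxin PTX3 (−1.23), and FZD4 with PRSS23, whose locus also held RP11-736K20.5 (−0.92), in the authors' deposited table. On the same strand, TTN (−1.19) overlapped CCDC141 (−1.49), and APLF (−0.85) overlapped PROKR1 in the authors' deposited table. Without overlap, the urea transporter SLC14A1 (−1.36) lay 73.0 kb from the lectin SIGLEC15 (−1.44) in the authors' deposited table. SHISA3 and the flippase ATP8A1 (−1.05) were 5.89 kb apart on chromosome 4 in the reference, with values from the authors' deposited table. ANK2 and the kinase CAMK2D (−0.59), 67.3 kb apart, were both in the deposited tables of both MED25 shRNAs.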

How the data were processed

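RNA from PC3 cells was sequenced, and the comparison of ETV4 shRNA A (3 libraries) with the retroviral control (2 libraries) is described from the authors' own comparison. The submitters' processing notes name Novoalign 3.08.02 and the build hg19. How reads were counted, whether strand was used, and the annotation, scaling and test behind the ratios: not given in the sources used here. Per the file headers, each gene carries a log2 ratio deposited by the authors. The column headed as an adjusted p was also deposited by the authors, and it was treated as a score because its scale is not stated. The MED25 ratios were turned round so that every value is knockdown over control. Library-level values and depths were not analysed here, so no error, interval or test of a gene was computed.

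Genes were matched by identifier to GENCODE release 29 on GRCh38, and 483 of 495 matched. It served for gene types, chromosomes and distances. Promoter windows came from RefSeq (GRCh38.p14), by symbol, for 336 of the 495 genes. The motif search was tested on simulated data. Motif matches in several windows of a gene count once per gene.

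The genes and 37 lists were chosen with earlier results of these data known. The genes named are the target, the 25 largest decreases, the 10 highest scores and genes in all 4 tables. Listed members of lists, and listed genes that overlap or adjoin another, are named too. PPA2, TYRP1, PKIB, PHOSPHO2 and 6 histone genes were chosen after their values were seen, as were the genes under other observations. So were ABCA8, ABCA10, COL2A1, HAPLN1, MGP, ABI3BP, BMP3, INHBE and DNAJC12. Alternatives were a log2 decrease of at least 1, a score of at least 50, protein-coding genes alone, and no overlapping genes. Tables were handled in Python 3.11.15 with numpy 2.4.6 and pandas 2.3.3, the rank correlation with scipy 1.17.1, and plots with matplotlib 3.10.9.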

Additional observations from a re-analysis of the deposited data

How the results depend on the processing

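With a log2 decrease of at least 1, the ETV4 shRNA A list held 115 genes in place of 495, those shared with MED25 shRNA A numbered 32 in place of 112 and those shared with MED25 shRNA B 21 in place of 47. The listed ATF4 regulators were then 4 and the amino acid synthesis enzymes 1, and the promoter share was 0% for the high-affinity ETS form, 5.19% for its looser form and 11.7% for the C/EBP-ATF element. These counts are smaller by construction, as fewer genes enter. With a score of at least 50, the list held 300 genes, and the looser ETS form, a setting added for promoters after seeing the data, was at 7.87%. Of the other 18 gene lists with at least 3 listed members, the counts of 15 moved by over 1.5 times under the first setting and of 3 under the second (interferon-induced genes to 5, immune surface receptors to 3, cytokines and their receptors to 1). Protein-coding genes alone, or leaving out overlapping genes, moved none of the 18 by that much. No paired analysis was possible because the result comes from no test on libraries, and leaving out each replicate was not run for the same reason. Depth is unknown, the number of genes the authors tested is not stated, and increases were not analysed here.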

Other observations

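Further groups were read from the authors' deposited table after the values were seen, and are given as values with no test. Secretory and mucosal genes were among them: the vitamin B12 binder TCN1 was at −1.38, the protease inhibitor SPINK5 at −1.40, the adhesion protein CEACAM6 at −0.99, the lipase LIPH at −0.94 and the gel-forming mucin MUC5B at −0.60 in the authors' deposited table. Innate immune genes included the inflammasome sensor NLRP3 at −1.24, the inflammatory caspase CASP4 at −0.86, the adaptor TMEM173 (STING) at −0.78 and the alarmin IL33 at −0.60 in the authors' deposited table. NLRP3 was also listed with ETV4 shRNA B, at −0.85 in its deposited table.

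Metabolic genes outside the fixed lists included the mitochondrial gluconeogenic enzyme PCK2 at −1.23, the nicotinamide methyltransferase NNMT at −1.38 and the steroid dehydrogenase HSD17B2 at −1.37 in the authors' deposited table. The tryptophan-degrading enzymes KMO (−0.79) and KYNU (−0.82) were listed together in the authors' deposited table. The transcription factor MYB was at −1.44 and the retinoic acid binder CRABP1 at −1.43 in the authors' deposited table.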
